A study of Homo sapiens with 24 samples.

Results

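EREG, AREG, HBEGF, TGFA, BTC, EGFR, ERBB2, ERBB3, ERRFI1 and ADAM17 are 10 genes of the epidermal growth factor (EGF) receptor system, and they are described here in cells of the human lung adenocarcinoma line A549 exposed to dexamethasone (dex), a synthetic glucocorticoid that activates the glucocorticoid receptor. The genes were chosen by name, as ligands, receptors, inhibitor and sheddase of the system, with earlier results of these data known. The counts of all transcripts of each were summed. These members are 10 of 33127 named genes in the table. Cells received 100 nM dex in ethanol or the same volume of ethanol (EtOH, 0.02%) and were harvested after 1, 3, 5, 7, 9 or 11 h, which gave 24 libraries of poly-A RNA, 2 per group. No genotype, age or donor separates the groups, all of which are the same established line. A549 is derived from 1 tumour, so the libraries sample 1 cell line. Between 6708864 and 13748598 reads were counted per library (median 10109393.5). The labels call the replicates biological but do not say that they came from separate cultures, so p-values measure only the spread between these libraries.

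The labelled cell type was compared with marker genes. The epithelial markers EPCAM, KRT8, KRT18 and CDH1 summed, in counts per 1000000 of the scaled library (CPM), to between 3231 and 10634 in the 24 libraries, with KRT18 the most counted. Nearly all of this sum was KRT8 and KRT18 (medians of 1924 and 2274 CPM with EtOH), beside 9.07 for EPCAM and 34.7 for CDH1. Markers of alveolar type 2 cells (SFTPC, SFTPB, SFTPA1 and NKX2-1) summed to at most 0.723 CPM, and SFTPA1 was at 0 in all libraries, so the defining surfactant genes of that cell type were absent or nearly so. Leukocyte markers (PTPRC, CD3E, CD14) summed to at most 3.6 CPM, most of it CD14, and CD3E was at 0. Of the endothelial markers, VWF and CDH5 were in the table and summed to at most 1.06 CPM. Fibroblast markers summed to between 5.71 and 22.9 CPM, nearly all COL1A1, while PDGFRB and DCN had 49 and 37 counts over all libraries. COL1A1 and the epithelial markers moved with dex. COL1A1 rose at 3 h (log2 fold change 0.57) and fell from 5 to 9 h (-1.20, -1.03 and -1.37). KRT8 and KRT18 rose from 3 to 11 h (0.66 to 1.45 and 0.68 to 1.14). CDH1 rose at 5 and 7 h (0.65 and 0.54), while EPCAM fell from 5 to 9 h (-0.84, -0.96 and -0.72). Their part in the results below was not tested. In bulk RNA, fewer cells that express a gene and less RNA per cell cannot be told apart.

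The EGF receptor is a tyrosine kinase at the cell surface of epithelia. Its ligands are made as membrane-anchored precursors, and proteases of the ADAM family, ADAM17 above all, cut them free so that they can reach receptors on the same or a neighbouring cell. Ligand binding pairs EGFR with itself or with ERBB2 or ERBB3 and switches on the RAS and ERK cascade, which in turn drives early response genes and feedback inhibitors. ERRFI1 (also called MIG6) binds the kinase domain of the receptors and blocks it. In airway epithelium the system is known for its role in growth and repair.

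EREG and AREG lie close together on chromosome 4 in the same orientation. In GENCODE release 29 on GRCh38, EREG covers chr4:74365143-74388751 and AREG chr4:74445134-74455009, both on the plus strand, with 56.4 kb between the end of the first and the start of the second. BTC lies farther along the same chromosome, at chr4:74744759-74794686 on the minus strand. The 250 bases before the transcription start of EREG (chr4:74364895-74365144), AREG (chr4:74444886-74445135) and ERRFI1 (chr1:8026310-8026559, minus strand) are given below, from RefSeq on GRCh38.p14, because these are the 2 ligands that fell most and the only member that rose at every time point. Capitals mark matches on either strand to 5 motifs. The TATA box was searched as TATAAA. The CCAAT box was searched by its own name. The cAMP response element was searched as TGACGTCA. The AP-1 site was searched as TGANTCA. The core hexamer of glucocorticoid receptor elements was searched as TGTTCT. No match to one of these motifs overlapped a match to another.
EREG: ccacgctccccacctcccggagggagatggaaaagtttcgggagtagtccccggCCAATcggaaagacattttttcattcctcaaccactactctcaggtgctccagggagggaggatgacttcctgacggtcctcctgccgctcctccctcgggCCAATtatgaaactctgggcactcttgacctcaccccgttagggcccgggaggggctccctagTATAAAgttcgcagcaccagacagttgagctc
AREG: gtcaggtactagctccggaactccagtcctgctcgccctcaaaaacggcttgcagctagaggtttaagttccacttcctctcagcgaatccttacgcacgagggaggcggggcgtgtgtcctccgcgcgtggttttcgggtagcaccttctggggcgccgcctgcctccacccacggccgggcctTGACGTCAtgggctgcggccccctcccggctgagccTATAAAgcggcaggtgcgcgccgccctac
ERRFI1: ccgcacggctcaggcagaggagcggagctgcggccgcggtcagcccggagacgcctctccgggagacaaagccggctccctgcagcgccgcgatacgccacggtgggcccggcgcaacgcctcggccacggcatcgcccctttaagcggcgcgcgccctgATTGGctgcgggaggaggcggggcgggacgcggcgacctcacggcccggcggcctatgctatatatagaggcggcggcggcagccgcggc
EREG and AREG both had a TATA box, 32 to 27 and 29 to 24 bases before the start, as did 10.7% of the 35116 upstream windows of 250 bases in the same table. EREG also had 2 CCAAT boxes (196 to 192 and 95 to 91 bases before the start) and ERRFI1 had 1 on the other strand (ATTGG, 90 to 86 bases before the start), a motif held by 32% of windows. AREG had a cAMP response element 65 to 58 bases before the start, which 1.65% of windows held. None of the 3 windows held the AP-1 letters, found in 6.57% of windows, or the glucocorticoid receptor hexamer, found in 12.4%. In the windows of the other members, TGFA held the glucocorticoid receptor hexamer on the other strand (AGAACA, 46 to 41 bases before the second of its 2 starts), the second window of EGFR held 2 TATA boxes and 2 AP-1 sites, and ERBB2 held 1 CCAAT box and 1 AP-1 site, while HBEGF, BTC and ADAM17 held none of the 5 motifs. These matches describe the letters of the windows only.

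The effect of dex was tested at each time point by itself, 2 dex against 2 EtOH libraries, with edgeR's quasi-likelihood F-test and Benjamini-Hochberg adjustment over 19897 features (genes, and transcripts without a gene name) with enough counts. A feature was called where the adjusted p was at most 0.1. Groups of 2 libraries often do not overlap even without an effect, and the share of all features without overlap is not given here. Fold changes are dex over EtOH on the log2 scale, and are followed by their standard error (SE). Where a library is left out at a time point, its group holds 1, so the p-value rests on the spread of the other group only. As a check of the labels, TSC22D3 (GILZ) and PER1, known early targets of the glucocorticoid receptor, rose at all 6 time points, by 3.24 ± 0.16 and 2.65 ± 0.16 (SE) at 1 h. FKBP5, a co-chaperone of the receptor, was at 0.51 ± 0.14 at 1 h without a call and rose by 3.38 ± 0.11 to 4.14 ± 0.13 from 3 to 11 h. ZBTB16 did not pass the filter on low counts. It held 31 counts over the 24 libraries, and its median was 0 CPM with EtOH and 0.282 CPM with dex.

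All 10 members passed the count filter. They were chosen with earlier results of these data known, so the shares of all features beside their calls are a description only. At 1 h, 2 of the 10 were called, EREG lower and ERRFI1 higher, against 0.824% of all tested features. Features called higher made up 0.488% and those called lower 0.337%. At 3 h 5 of the 10 were called, 3 lower and 2 higher, against 12.9% of all features (5.02% lower and 7.85% higher). At 5 h 5 were called, 4 lower and 1 higher, against 23.1% (11.7% lower and 11.4% higher). At 7 h 6 were called, 4 lower and 2 higher, against 25.8% (12.4% lower and 13.4% higher). At 9 h 5 were called, 3 lower and 2 higher, against 18.1% (8.78% lower and 9.31% higher). At 11 h 4 were called, 3 lower and 1 higher, against 8.68% (3.29% lower and 5.39% higher). With all libraries 164, 2559, 4588, 5132, 3599 and 1727 features were called from 1 to 11 h in turn, and at every time but 5 h leaving out 1 library moved the count by over 1.5 times. The members called fell to 1 at 1 h without the first EtOH library, and to 3 at 7 h and 3 at 9 h without the second dex library. The features called at 1 h were 509 and 770 without the first or second dex library and 92 without the second EtOH library. At 3 h they were 1641 without the first dex library and 1518 without the first EtOH library, and at 7 h 2660 and 2904 without the first or second dex library. At 9 h they were 1362 and 1328 without the first or second dex library and 6108 without the first EtOH library. At 11 h they were 5845 and 3347 without the first or second dex library, and 859 and 881 without the first or second EtOH library. The ligands EREG, AREG and TGFA were lower and ERRFI1 was higher at every time point from 3 to 11 h. Among all features, 1.45% were called lower and 3.12% higher at each of these 5 time points. The members were not replicates of one another: EREG and AREG share a locus, and all members share the same libraries. BTC, farther along the same chromosome, was called at no time point.

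EREG, which encodes epiregulin, a ligand of EGFR and ERBB4, fell at every time point. With EtOH the libraries held 163 and 150 CPM at 1 h, 198 and 207 at 3 h, 207 and 208 at 5 h, 184 and 194 at 7 h, 201 and 149 at 9 h, and 217 and 203 at 11 h. With dex they held 94.8 and 96.2 CPM at 1 h, 29.1 and 29.8 at 3 h, 65.5 and 56.4 at 5 h, 60.2 and 59.2 at 7 h, 62.3 and 58.8 at 9 h, and 39.8 and 33.8 at 11 h. No dex library reached the lowest EtOH library of any time point. The lowest dex values were those of 3 h, and the values of 5, 7 and 9 h lay between those of 3 h and 1 h.
The fold change was -0.71 ± 0.11 at 1 h (1.64-fold lower, adjusted p = 0.00146), -2.78 ± 0.11 at 3 h (6.87-fold lower, 1.08e-18), -1.77 ± 0.11 at 5 h, -1.66 ± 0.08 at 7 h, -1.54 ± 0.14 at 9 h (2.9-fold lower, 1.89e-06) and -2.51 ± 0.15 at 11 h (5.7-fold lower, 4.76e-07), all by edgeR. The fold change of EREG was thus farther from 0 at 3 and 11 h than between them. Of these differences, only that of 11 h against 5 h was tested by itself. Its call, given below, was lost without the first or the second EtOH libraries. Features called lower at all 6 time points made up 0.161% of those tested. The call at 1 h was lost without the first EtOH library of that time point (-0.65, adjusted p = 0.108).

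AREG encodes amphiregulin, an EGFR ligand with a heparin-binding domain. EtOH libraries held 18.7 and 16.1 CPM at 1 h, 23.8 and 20.3 at 3 h, 20.4 and 18.8 at 5 h, 18.2 and 16.5 at 7 h, 15.7 and 17.7 at 9 h, and 21.8 and 20.3 at 11 h. Dex libraries held 11.1 and 12.7 CPM at 1 h, 6.41 and 4.41 at 3 h, 4.59 and 5.38 at 5 h, 4.7 and 6.34 at 7 h, 7.04 and 8.34 at 9 h, and 5.62 and 5.42 at 11 h. The dex libraries lay below the EtOH libraries at every time point. At 1 time point, groups of 2 often show such an order without an effect.
At 1 h the fold change was -0.55 ± 0.18 and was not called (adjusted p = 0.351 by edgeR), though it was without the second dex library (-0.64, adjusted p = 0.0519). From 3 to 11 h AREG fell, by -2.03 ± 0.19, -1.97 ± 0.20, -1.68 ± 0.18, -1.10 ± 0.19 and -1.93 ± 0.21 in turn, which is between 4.09-fold (3 h) and 2.14-fold (9 h). These values rest on fewer reads than those of EREG, 42 to 113 counts per dex library against 281 to 961. The level of AREG is uncertain, because RefSeq lists AREGB as a further name of AREG, older annotations held it as a near-identical gene of its own, and reads that match such a copy could be counted elsewhere.

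TGFA encodes transforming growth factor alpha. Its EtOH libraries held 14.8 and 13.1 CPM at 1 h, 15.7 and 14.8 at 3 h, 14.5 and 15.7 at 5 h, 12.8 and 14.8 at 7 h, 13.8 and 15.7 at 9 h, and 14 and 11.5 at 11 h. Its dex libraries held 15.3 and 14.1 CPM at 1 h, 7.76 and 7.65 at 3 h, 8.41 and 7.17 at 5 h, 10.2 and 8.33 at 7 h, 9.48 and 7.81 at 9 h, and 6.5 and 7.41 at 11 h. The treatments overlapped at 1 h and at no later time point.
The fold change of TGFA was 0.08 ± 0.17 at 1 h and lower than 0 from 3 h on, at -0.98 ± 0.17 (1.97-fold, adjusted p = 0.000125 by edgeR), -0.96 ± 0.19, -0.55 ± 0.17, -0.79 ± 0.19 and -0.87 ± 0.22 (adjusted p = 0.0277). Without one dex or EtOH library the calls at 7, 9 and 11 h could be lost: at 7 and 9 h without the second dex library (-0.43, adjusted p = 0.219, and -0.64, adjusted p = 0.262) and at 11 h without the first EtOH library (-0.73, adjusted p = 0.422). With DESeq2 the call at 7 h was lost as well (-0.56, adjusted p = 0.168).

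**Figure D1:**
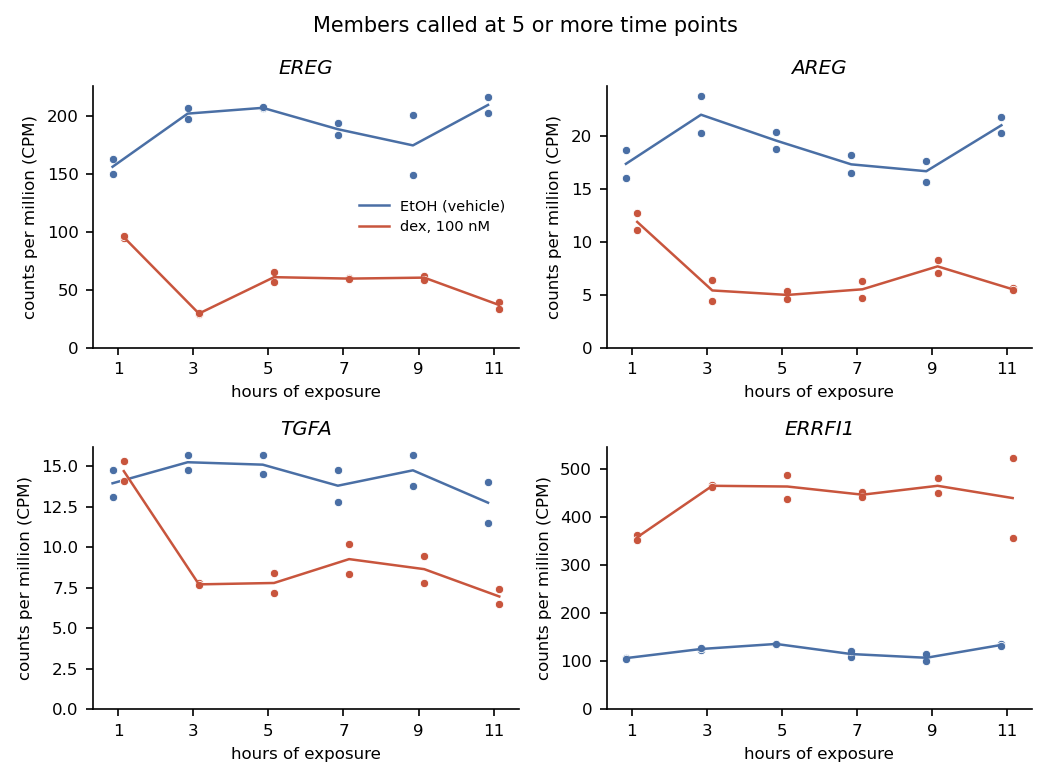
Level in CPM (vertical axis, from 0) against hours of exposure for EREG, AREG, TGFA and ERRFI1. Points are libraries (2 per group) and lines join the group means; EREG with dex is lowest at 3 h (29.4 CPM on average) and ERRFI1 with dex lies above EtOH throughout.

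HBEGF (heparin-binding EGF-like growth factor) and BTC (betacellulin) were the least counted members and were not called at any time point. HBEGF ranged from 2.27 to 4.66 CPM with EtOH and from 1.75 to 3.97 with dex, and the treatments overlapped at 5, 7 and 9 h. Its fold changes were -0.18 ± 0.27, -0.31 ± 0.27, -0.32 ± 0.32, 0.11 ± 0.35, -0.43 ± 0.32 and -0.64 ± 0.33 from 1 to 11 h, and the approximate 95% interval at 11 h was -1.28 to 0.00 (unadjusted p = 0.073 by edgeR's F-test). Without the second dex library of 11 h the value was -1.10 and was called (adjusted p = 0.0261). BTC ranged from 1.53 to 3.74 CPM with EtOH and from 1.34 to 4.14 with dex, and the treatments overlapped at every time point. Its fold changes lay between -0.43 ± 0.36 (5 h) and 0.08 ± 0.33 (9 h). These 2 genes had 12 to 51 counts per library, and their approximate 95% intervals at 3 h were -0.84 to 0.23 for HBEGF and -0.87 to 0.42 for BTC. Such intervals use a normal quantile, so they are too narrow for 2 against 2 libraries.
Of the 5 ligands, 3 were therefore lower at each time point from 3 to 11 h and none was higher. The median fold change of the 5 was -0.98 at 3 h and -0.87 at 11 h, beside 0.01 over all tested features at both times.

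ERRFI1 rose 3.38-fold within the first hour and stayed between 3.3-fold and 4.34-fold above EtOH afterwards. EtOH libraries held 107 and 105 CPM at 1 h, 123 and 127 at 3 h, 135 and 136 at 5 h, 108 and 121 at 7 h, 114 and 99.5 at 9 h, and 136 and 131 at 11 h. Dex libraries held 363 and 352 CPM at 1 h, 467 and 462 at 3 h, 488 and 438 at 5 h, 451 and 441 at 7 h, 480 and 449 at 9 h, and 523 and 355 at 11 h. Every dex library was above every EtOH library, and the 2 dex libraries of 11 h stood farther apart than those of any other time point.
The fold change was 1.75 ± 0.11 at 1 h (adjusted p = 5.57e-09 by edgeR), 1.89 ± 0.10 at 3 h, 1.77 ± 0.10 at 5 h, 1.96 ± 0.08 at 7 h (1.89e-20), 2.12 ± 0.12 at 9 h and 1.72 ± 0.17 at 11 h (2.38e-05). Features called higher at all 6 time points made up 0.367% of those tested. All 6 calls held under all 13 alternatives tried.

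**Figure D2:**
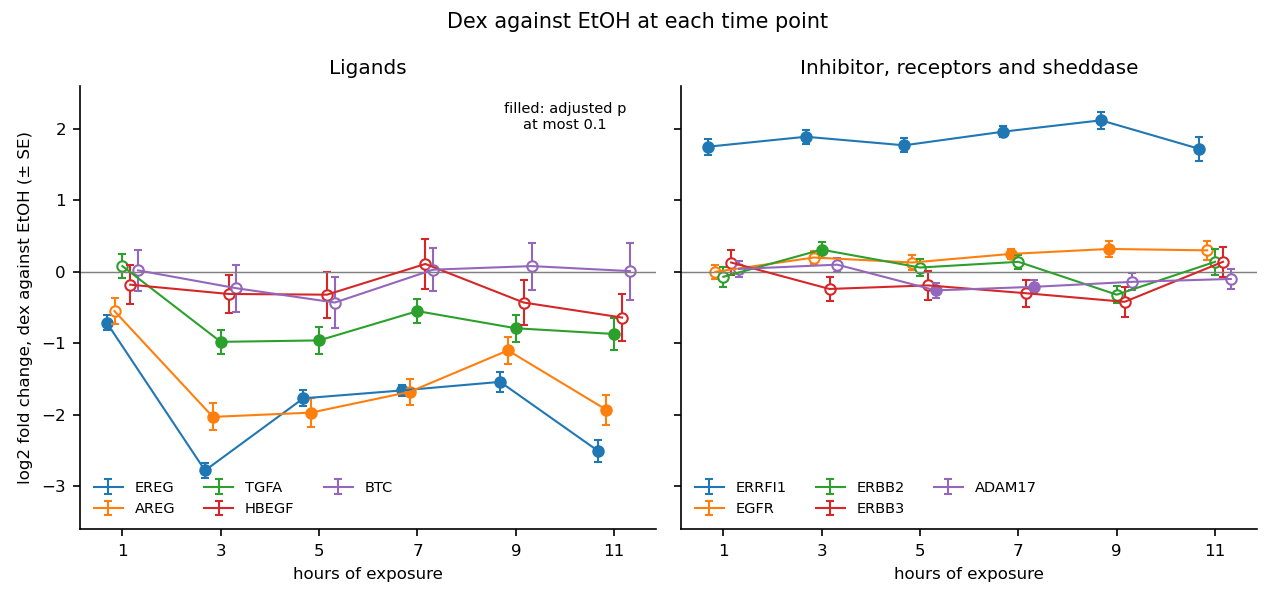
Log2 fold change of dex against EtOH (vertical axis) with its SE against hours of exposure, for the 5 ligands (left) and for ERRFI1, the 3 receptors and ADAM17 (right). Filled points have an adjusted p of at most 0.1; ERRFI1 stays between 1.72 and 2.12 while EREG reaches -2.78 at 3 h.

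EGFR, the receptor of all 5 ligands here, was among the most counted members. EtOH libraries held between 267 and 347 CPM (median 315) and dex libraries between 263 and 430. The groups overlapped at 1 and 5 h, and dex lay above EtOH at 3, 7, 9 and 11 h. EGFR rose at 7 h (0.25 ± 0.07, 1.19-fold, adjusted p = 0.013 by edgeR) and at 9 h (0.32 ± 0.11, 1.25-fold, adjusted p = 0.0605). The fold change at 11 h was of like size, 0.30 ± 0.13, and was not called (adjusted p = 0.259), though it was without the first dex library (0.37, adjusted p = 0.0029) and in one fit over the 24 libraries (adjusted p = 0.0485). At 5 h the value was 0.13 ± 0.11, which became 0.31 (adjusted p = 0.0841) without the second dex library and -0.07 (adjusted p = 0.797) without the first. The call at 7 h was lost without the second dex library (0.17), in one fit over the 24 libraries (0.25, adjusted p = 0.107) and by the most counted transcript (0.19, adjusted p = 0.118). That at 9 h was lost without either dex library (0.32 in both fits), with DESeq2 (0.33, adjusted p = 0.101) and by the most counted transcript (0.35, adjusted p = 0.106). In these fits the fold change at 9 h stayed about as large.
ERBB2, the coreceptor with no ligand of its own, ranged from 41.5 to 58.7 CPM with EtOH and from 41.7 to 69.3 with dex. It was called higher at 3 h (0.31 ± 0.11, 1.24-fold, adjusted p = 0.0898), where 57.5 and 58.4 CPM with dex stood against 46.5 and 47.2 with EtOH, but 12 of the 13 alternatives lost that call, DESeq2 among them (adjusted p = 0.325). At 9 h its value was -0.32 ± 0.12 (adjusted p = 0.108, and 0.0174 without the first EtOH library). At 11 h the dex libraries held 47 and 69.3 CPM on either side of EtOH. The value of 0.14 ± 0.18 became 0.40 without the first of them and -0.17 without the second. ERBB3, which binds neuregulins and lacks a strong kinase of its own, was not called at any time point. It ranged from 8.22 to 13.1 CPM with EtOH and from 7.13 to 16.2 with dex, with fold changes between -0.42 ± 0.21 (9 h, approximate 95% interval -0.83 to -0.01) and 0.14 ± 0.21 (11 h, -0.28 to 0.56). These intervals use a normal quantile and are too narrow for so few libraries. ERBB3 at 9 h had an unadjusted p of 0.0631 by edgeR's F-test. Of the 13 alternatives, 1 called it lower at 7 h (-0.54, adjusted p = 0.0358, without the second EtOH library) and 1 at 9 h (-0.58, adjusted p = 0.0341, without the first), while over all 13 the values ran from -0.54 to -0.01 at 7 h (adjusted p up to 0.99) and from -0.59 to -0.22 at 9 h (adjusted p up to 0.78).

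ADAM17, the main sheddase of AREG, EREG, TGFA and HBEGF, fell by less than any called ligand. EtOH libraries held between 82.6 and 101 CPM and dex libraries between 75.4 and 104. At 5 h the dex libraries held 78.9 and 80.9 CPM and the EtOH libraries 90.1 and 101, and at 7 h they held 78.5 and 84.9 against 93.4 and 95. The fold changes were -0.26 ± 0.11 (1.2-fold lower, adjusted p = 0.0943 by edgeR) at 5 h and -0.21 ± 0.09 (1.16-fold lower, adjusted p = 0.0864) at 7 h, both close to the threshold. Of the 26 values for these 2 calls under the 13 alternatives, 16 lost the call, DESeq2's (adjusted p = 0.27 and 0.307) among them. At 1, 3, 9 and 11 h the values were 0.04, 0.10, -0.14 and -0.10, with no call.

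**Figure D3:**
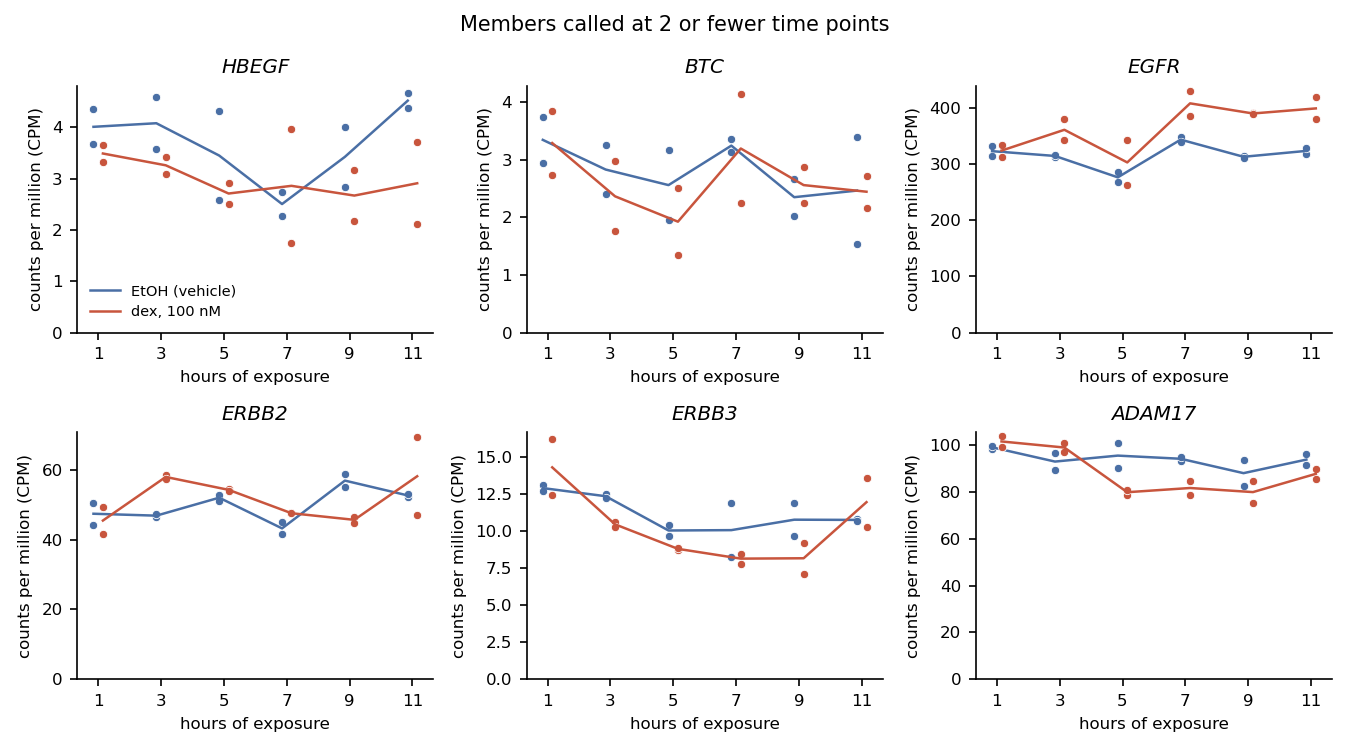
Level in CPM (vertical axes, each from 0) against hours of exposure for the 6 members called at 2 or fewer time points. Points are libraries and lines join group means; HBEGF and BTC stay below 5 CPM, and EGFR with dex lies above EtOH at 7 and 9 h, where it was called.

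Whether an effect changed over time was tested in one fit over the 24 libraries. The dex effect changed over the 6 time points for EREG (adjusted p = 3.58e-09), AREG (0.000265) and TGFA (0.0111), all by edgeR, and 13.8% of all features were called in this test. The adjusted p was 0.427 for ERRFI1 and 0.185 for ERBB2, and without the first dex library of every time point both passed the threshold (0.0905 and 0.095), against up to 0.816 and 0.702 under the other alternatives. The fold change of ERRFI1 at 3 h differed from that at 1 h by 0.13 ± 0.17. The effect at 3 h was larger in size than at 1 h for EREG (by -2.07 ± 0.16, adjusted p = 1.60e-09), AREG (by -1.48 ± 0.25, adjusted p = 0.000461) and TGFA (by -1.06 ± 0.23, adjusted p = 0.00685). Among all features, 4.39% were called in this contrast, 1.78% lower and 2.61% higher. ERRFI1 was thus close to its later fold change by 1 h, while most of the fall of EREG, AREG and TGFA came between 1 and 3 h. For TGFA both tests were lost without the first dex library of every time point, and without the first or the second EtOH library of every time point. In these fits its difference of 3 h from 1 h was -1.01, -1.11 and -1.02 in turn.
The effect at 11 h was larger than at 5 h for EREG (by -0.74 ± 0.16, adjusted p = 0.0148), a contrast in which 2.42% of features were called, 0.658% lower and 1.76% higher. This call was lost without the first or the second EtOH libraries, though the difference stayed about as large (-0.69 and -0.79). For AREG and TGFA the same contrast was 0.05 ± 0.27 and 0.09 ± 0.25, with no call.
A fold change against EtOH can also move with the EtOH level. Over the 12 EtOH libraries, ERRFI1 was called as changing with time (adjusted p = 0.0788), with group means from 106 CPM at 1 h to 135 at 5 h, where 3.16% of features were called. With 1 EtOH library left out at a time, an alternative chosen after seeing the data, this call was lost in 8 of 12 fits (adjusted p up to 0.218), those without either library at 1, 5 or 11 h or without the first at 3 or 7 h. EREG was just outside the threshold in this test (adjusted p = 0.107, but 0.0727 with DESeq2 and 0.00512 with no filter on low counts, and 0.00203 and 0.0193 without the first or the second EtOH library at 9 h), with means from 156 CPM at 1 h to 210 at 11 h. The EtOH course of the other 8 members was not called, with adjusted p between 0.199 and 0.862.

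Divided by transcript length, the levels of the members can be set against each other. In EtOH the order of the medians over 12 libraries, in CPM per kilobase of transcript (each transcript's CPM divided by its own length and then summed), was ERRFI1 (55.2), EGFR (47), EREG (43.2), ADAM17 (21.4), AREG (17.1), ERBB2 (15.6), TGFA (6.81), ERBB3 (4.04), HBEGF (1.61) and BTC (1.47). The ranges of ERRFI1 and EGFR, EGFR and EREG, ADAM17 and AREG, AREG and ERBB2, TGFA and ERBB3, and HBEGF and BTC overlapped, so the order within these neighbours is not set beyond their spread. With EtOH, EREG was the most abundant per length of the 5 member ligands, and its range did not meet that of ADAM17, the next gene in the order. Other ligands of the system were not put on this scale.
With dex the order of the same per-length medians was ERRFI1 (204), EGFR (55.3), ADAM17 (19.4), ERBB2 (15.4), EREG (12.8), AREG (5.38), TGFA (3.98), ERBB3 (3.72), BTC (1.32) and HBEGF (1.31). These medians pool the 6 time points, over which EREG with dex ranged from 6.29 to 20.8 and ERBB2 from 12.7 to 22.7 on this scale, so the order need not be that of any single time point. The ranges of ERRFI1 and EGFR were apart, as were those of EGFR and ADAM17, and those of ADAM17, ERBB2, EREG, AREG, TGFA and ERBB3 overlapped from each neighbour to the next. The order depended on the length used. With each gene's count divided by the length of its longest transcript, the EtOH medians were 43.2 for EREG, 39.4 for ERRFI1 and 32 for EGFR, with ranges that all overlapped, so EREG came first instead of after ERRFI1 and EGFR, and TGFA was at 3.39 instead of 6.81. With dex EREG (12.8) came before ERBB2 (10.1) on that scale instead of after it, again with overlapping ranges. On both scales ERRFI1 stood alone at the top with dex, its range apart from that of EGFR. With EtOH, EREG was the most abundant per length of the 5 member ligands on both scales. The place of AREG in these orders is as uncertain as its level, since reads on a near-identical copy would not be counted in it.
Single transcripts carried much of the counts of several members. EREG and HBEGF had 1 transcript each in the table, ADAM17 had 89.5% of its counts on 1 of 2, EGFR 80.8% on 1 of 7 and ERRFI1 70.8% on 1 of 5, while the most counted transcript of ERBB2 held 14.6% and that of ERBB3 28%. For ERBB2, where reads of near-identical isoforms are spread over 14 transcripts, the single most counted transcript gave 0.11 at 3 h (adjusted p = 0.846) in place of 0.31.

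**Figure D4:**
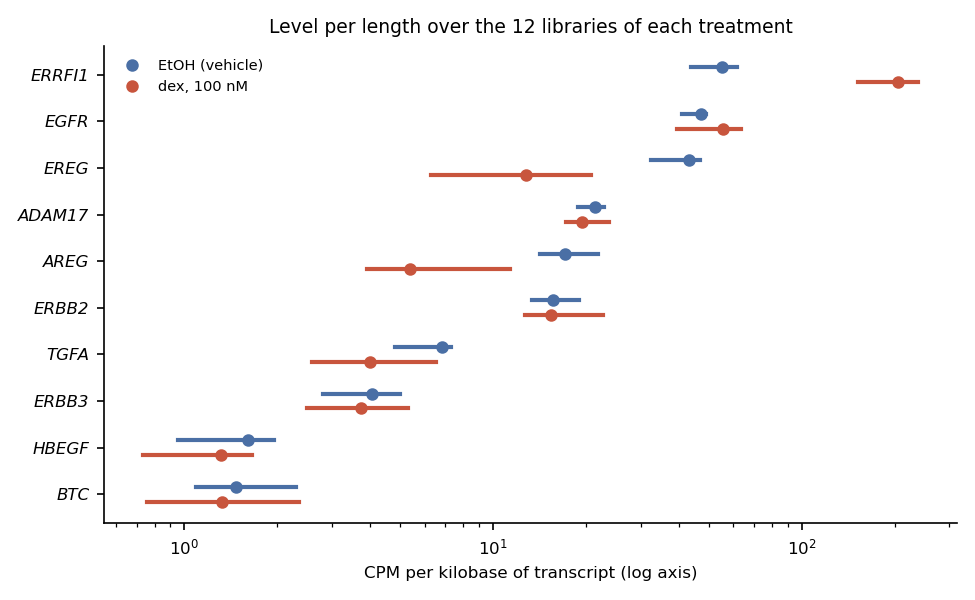
Level per length (horizontal axis, log scale, CPM per kilobase of transcript) of the 10 members with EtOH and with dex. Points are medians and bars the lowest to highest of 12 libraries over all time points; the bars of EREG do not meet between treatments, nor do those of AREG or ERRFI1.

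Other genes of the system, 55 in all, were listed by role, and 51 of them passed the filter. Of 6 other ligands, 3 passed. NRG1, which encodes neuregulin 1, a ligand of ERBB3 and ERBB4, fell from 3 to 11 h, with fold changes of -0.95 ± 0.11, -1.04 ± 0.11, -0.89 ± 0.09, -1.04 ± 0.12 and -1.0 ± 0.14. Its EtOH libraries lay between 88.7 and 98 CPM (median 90.3) and its dex libraries between 42 and 87.9 (median 47.8), so the treatments did not overlap, though by a small margin at 1 h, where the fold change was -0.05 ± 0.11. NRG4 was called lower at 7 h only (-0.56 ± 0.21) and EGF at 5 h only (-3.29 ± 0.83). EGF had at most 16 counts in an EtOH library and 9 in a dex library, so the size of its change is uncertain. Over all time points its medians were 0.949 CPM with EtOH and 0.583 with dex. EPGN, NRG2, NRG3 and the receptor ERBB4 did not pass the filter, with 10, 131, 1 and 45 counts in all.
Among 8 genes of shedding, 3 metalloproteases rose and 1 fell at 2 or more consecutive time points. ADAM15 rose from 3 to 11 h (0.61, 0.70, 0.72, 0.35 and 0.62), ADAM9 at 7 and 9 h (0.35 ± 0.07 and 0.41 ± 0.11) and ADAM10, the main sheddase of EGF and BTC, at 5 and 7 h (0.25 ± 0.10 and 0.21 ± 0.07). ADAM12 fell at 5, 7 and 9 h (-1.25 ± 0.17, -1.09 ± 0.15 and -0.66 ± 0.17). The iRhom genes RHBDF1 and RHBDF2 and FRMD8, which carry ADAM17 to the cell surface, and the inhibitor TIMP3 did not meet this rule, and RHBDF2 was called higher at 3 h (0.42). Among all features, 9.67% were called higher and 8.55% lower at 2 or more consecutive time points, and these shares are the background for the lists that follow.

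Of 9 genes that restrain the receptors, 3 rose by that rule and none fell. CBLB, a ubiquitin ligase that sends the receptor to lysosomes, rose from 3 to 9 h (0.45, 1.08, 0.80 and 0.68), PTPN1, a phosphatase that acts on the receptors, from 5 to 11 h (0.34, 0.37, 0.52 and 0.53), and RNF41 (NRDP1), a ubiquitin ligase of ERBB3, at 3, 7 and 9 h (0.46, 0.32 and 0.49). LRIG1, LRIG2, LRIG3, CBL, SOCS4 and SOCS5 did not meet the rule. Of these, SOCS5 was called lower at 3 and 7 h (-0.68 and -0.26), SOCS4 lower at 3 h (-0.29), LRIG1 lower at 5 h (-0.71) and LRIG2 higher at 9 h (0.44). None of these changed by as much as ERRFI1 at the same time point.
Of the 17 adaptors and kinases from receptor to ERK, 2 rose by the rule of consecutive calls and none fell. SHC1, an adaptor of the receptors, rose from 3 to 11 h (0.74 ± 0.09, 1.25 ± 0.10, 1.15 ± 0.07, 1.23 ± 0.11 and 0.93 ± 0.13), from a median of 174 CPM with EtOH to 365 with dex. MAP2K2, which encodes the kinase MEK2, rose at 5 and 7 h (0.65 ± 0.11 and 0.83 ± 0.17). At single or separate time points HRAS (0.70 ± 0.17 at 3 h), SOS2 (0.32 ± 0.11 at 5 h and 0.63 ± 0.13 at 9 h), and NRAS and MAP2K1 (0.19 and 0.20 at 7 h) were called higher. None of the 17 was called lower at any time point, where between 0.337% (1 h) and 12.4% (7 h) of all features were. The share of all features never called lower is not given, so this count is a description. The median fold change of the list stayed between 0.00 and 0.13.

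Of 14 genes known to respond to ERK, 6 fell and 3 rose by the rule of consecutive calls. IER3, an early response gene, fell at all 6 time points, from -1.36 ± 0.20 at 1 h to -1.79 ± 0.19 at 3 h and -1.71 ± 0.23 at 11 h. DUSP4, a phosphatase of ERK and other MAP kinases, fell from 3 h on, most at 3 h (-1.66 ± 0.11) and least at 7 h (-0.77 ± 0.08). PHLDA1 fell from 3 h on as well (-1.22 ± 0.11 at 3 h and -0.74 ± 0.15 at 11 h), and FOSL1, a member of the AP-1 factors, from 1 to 9 h (-0.91 ± 0.22 at 1 h and -1.24 ± 0.24 at 5 h). The ETS factors ETV4 and ETV5 were the other 2 that fell.
FOS, CCND1 (cyclin D1) and DUSP5 rose instead. FOS rose from 3 to 11 h, least at 5 h (0.68 ± 0.22) and most at 7 h (1.19 ± 0.21), from a median of 4.92 CPM with EtOH to 8.73 with dex, CCND1 over the same times (0.35 ± 0.09 to 0.64 ± 0.13), and DUSP5 at 7 and 9 h (0.76 ± 0.10 and 0.64 ± 0.12). EGR1 and SPRED2 were called at no time point, and DUSP6, SPRY2 and SPRY4 at 1 each. The members of the list thus did not move in 1 direction, and the median of the 14 was -0.66 at 5 h and 0.30 at 9 h, beside 0.01 and -0.02 over all features.

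**Figure D5:**
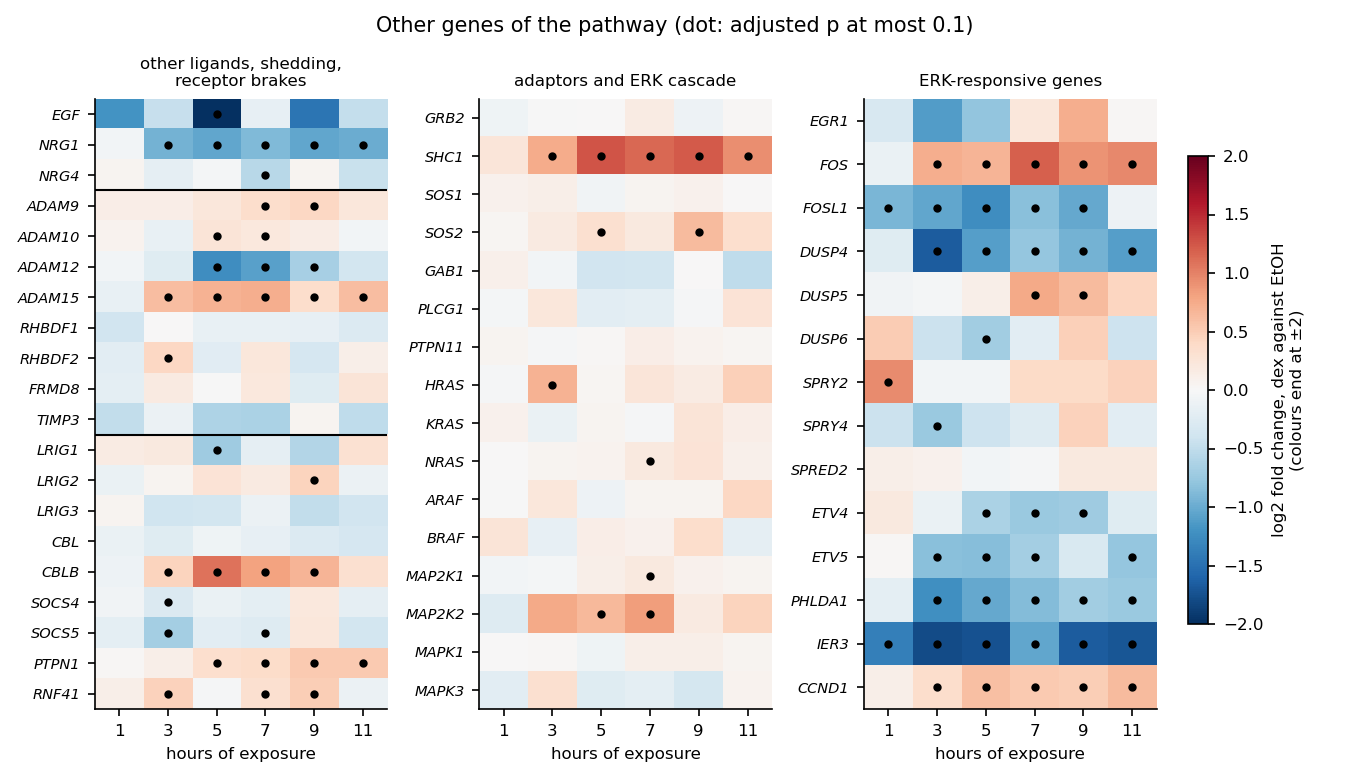
Log2 fold change of dex against EtOH (colour, blue lower and red higher, ending at ±2) for tested genes of 5 lists (rows, 1 gene not shown) at each time point (columns, hours). Dots mark an adjusted p of at most 0.1; NRG1, IER3, DUSP4 and PHLDA1 are blue with dots from 3 to 11 h and SHC1, FOS, ADAM15 and CCND1 are red with dots over the same times.

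The genes whose levels followed EREG and ERRFI1 most closely were found by Pearson correlation of log2 CPM over the 24 libraries, which share treatment and time and so are given as a description only. For EREG they were IFFO2 (0.98), DUSP4, ZBED5, C6orf141 and PDE4B (each 0.97). C6orf141 had fold changes of -0.91, -2.90, -1.80, -2.60, -1.64 and -2.56 from 1 to 11 h. IFFO2 had -0.40 at 1 h, -1.72 at 3 h and -1.41 at 11 h. DUSP4 is the one gene that also stood in a list above. For ERRFI1 they were BIRC3 (0.99), ZFP36, TSC22D3, PDK4 and CDC42EP3 (each 0.98). BIRC3, an inhibitor of apoptosis, had 2.03 at 1 h and 2.24 at 11 h, ZFP36, a protein of mRNA decay, 2.33 and 2.81, and PDK4, a kinase that restrains pyruvate dehydrogenase, 1.56 and 2.14.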

How the data were processed

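Poly-A RNA of 24 A549 libraries (100 nM dex or EtOH, 1 to 11 h, 2 replicates) was analysed, with treatment, time and replicate taken from the labels. A free-text label states 1 h for all libraries, so the duration label was used, and the study's methods state triplicates where the labels give 2 replicates. The deposited values are read counts per transcript, not normalized. The authors mapped single-end, strand-specific reads of 50 bases to GENCODE transcripts with Bowtie and counted them with samtools (SAMtools and hg19 are also in the submitters' processing notes). How reads matching several transcripts were placed, and whether counting used strand, is not given in the sources used here.

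The 119207 transcripts were joined to GENCODE release 29 by identifier without version. Of these, 110262 matched (94.1% of counts) and were summed per gene, and the other 8945 stayed as features of their own. filterByExpr over 12 groups kept 19897 of 42072 features. edgeR 4.0.16 (R 4.3.3) fitted the counts with TMM scaling and its robust quasi-likelihood F-test, Benjamini-Hochberg adjustment and calls at an adjusted p of at most 0.1, each time point by itself. Time contrasts and the EtOH course used one fit over the 24 or the 12 EtOH libraries. SEs come from the fold change and its F statistic, and CPM uses TMM-scaled library sizes. Totals were 6708864 to 13748598 counts per library. The coefficient of variation between replicates was 6.48% at 7 h to 12.7% at 11 h. Intervals cover the spread between libraries as the model shares it among features. Tests were run on simulated counts first. DESeq2 was version 1.42.0 and matplotlib 3.10.9.

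The members, lists, tests and alternatives were chosen with earlier results of these data known. Named genes were the 10 members, the genes of each list called at 2 or more consecutive time points in 1 direction (at most 4 per list and direction, by mean fold change), the 4 genes that checked the treatment, and the 5 genes most like EREG and ERRFI1. Other list genes (ETV4, ETV5, EGF, NRG4 and those without consecutive calls) and the markers were named to complete their lists after their values were seen. The result of 1 gene in a list is not reported here. Alternatives were DESeq2 size factors, DESeq2, no filter, 10 counts in every library, a threshold of 0.05, one fit over 24 libraries, a replicate block, the most counted transcript, protein-coding transcripts only, and each replicate left out.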

Additional observations from a re-analysis of the deposited data

Results flagged for a closer look

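The dex effect differed between time points, by the test of the difference itself, for 3 ligands. In the fit over the 24 libraries with edgeR's quasi-likelihood F-test, the adjusted p for any change of the effect over 1 to 11 h was 3.58e-09 for EREG, 0.000265 for AREG and 0.0111 for TGFA. The effect at 3 h was below that at 1 h for EREG (adjusted p = 1.60e-09), AREG (0.000461) and TGFA (0.00685). For EREG the effect at 11 h was also below that at 5 h (adjusted p = 0.0148). Both calls of TGFA were lost without the first dex libraries or without either set of EtOH libraries. The last call of EREG was lost without either set of EtOH libraries, though the difference stayed about as large (-0.69 and -0.79). Groups of 2 libraries were too small to test any single library for standing apart from its group.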

How the results depend on the processing

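Of the 286 values of EREG, AREG, TGFA and ERRFI1 at their called time points under 13 alternatives, 281 kept the direction and the call and 5 lost the call, 4 of TGFA and 1 of EREG; none changed sign. The alternatives also kept the higher values of EGFR and the lower values of ADAM17, but 8 of 26 and 16 of 26 lost the call. With DESeq2 the features called were 1324 at 3 h, 2660 at 5 h, 2727 at 7 h and 2032 at 9 h, and with the most counted transcript in place of the sum they were 1498, 2826, 3228 and 2081, and 1068 at 11 h. With no filter on low counts 302 features were called at 1 h and 2047 in the EtOH course. At an adjusted p of at most 0.05, 563 were called for 3 h against 1 h, 270 for 11 h against 5 h and 225 in the EtOH course. One fit over 24 libraries called 2971 at 11 h. In the EtOH course 2 members were called with DESeq2 or with no filter and 0 at 0.05, instead of 1. The causes were not tested.

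Leaving out one replicate, the features called ranged from 92 to 770 at 1 h, 1518 to 2993 at 3 h, 2660 to 5870 at 7 h, 1328 to 6108 at 9 h and 859 to 5845 at 11 h. They ranged from 885 to 2712 for the change of the effect over time, 264 to 1981 for 3 h against 1 h and 55 to 696 for 11 h against 5 h. The members called ranged from 1 to 3 at 1 h, 3 to 6 at 7 h, 3 to 7 at 9 h and 0 to 1 for 11 h against 5 h. The highest count at 11 h (5845) came without the first dex library and that at 9 h (6108) without the first EtOH library. A lone library was assumed to vary like the groups that kept 2 libraries, which at a single time point was 1 group. The EtOH course has no degrees of freedom left without all 6 EtOH libraries of one number, so single EtOH libraries were left out in turn, a choice made after seeing the data: 23 (without the first at 7 h) to 2273 features (without the first at 9 h) were called, against 628, and 0 to 2 members.

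Values that changed sign were all uncalled. Leaving out one replicate, the fold change ranged at 1 h from -0.28 to 0.21 for BTC, -0.04 to 0.05 for EGFR, -0.19 to 0.05 for ERBB2, -0.06 to 0.33 for ERBB3 and -0.0047 to 0.17 for TGFA. At 3 h BTC ranged from -0.67 to 0.08. At 5 h EGFR ranged from -0.07 to 0.31 and HBEGF from -0.67 to 0.07. At 7 h BTC ranged from -0.53 to 0.35 and HBEGF from -0.52 to 0.66, and at 9 h BTC from -0.11 to 0.29. At 11 h BTC ranged from -0.47 to 0.67, ERBB2 from -0.17 to 0.40 and ERBB3 from -0.07 to 0.33. For 3 h against 1 h ADAM17 ranged from -0.01 to 0.12, BTC from -0.88 to 0.37 and HBEGF from -0.25 to 0.02. For 11 h against 5 h AREG ranged from -0.09 to 0.19, BTC from -0.46 to 1.38, EGFR from -0.08 to 0.45, ERBB2 from -0.23 to 0.34, ERRFI1 from -0.28 to 0.12 and TGFA from -0.12 to 0.30. BTC was -0.0021 at 1 h with no filter, -0.0041 at 7 h and -0.01 at 11 h with DESeq2, and -0.13 at 11 h by its most counted transcript, EGFR was -0.02 at 1 h with no filter, and ERBB2 was -0.05 at 5 h by its most counted transcript.

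Replicate numbers are shared between the treatments, but samples with the same number deviated together at 1 and 9 h only (correlation of deviations 0.135 and 0.102, and between -0.0588 and 0.026 at the other times), so the numbers were not shown to pair the samples. With the replicate number as a block, the features called were 628 at 1 h, 2240 at 3 h, 4721 at 5 h, 5143 at 7 h, 5276 at 9 h and 2185 at 11 h. The members called with the block were 3, 4, 5, 6, 6 and 4, with AREG at 1 h (-0.56) and ERBB2 at 9 h (-0.32) added and ERBB2 at 3 h lost. BTC was -0.02 at 1 h and -0.01 at 7 h with the block.

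HBEGF and BTC had 12 to 51 counts per library.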

Other observations

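Of 3161 transcripts without a gene name and with more than 500 counts, ENST00000380846.3 and ENST00000264487.2 were the closest to AREG in log2 CPM over the 24 libraries (Pearson's r = 0.96 and 0.95). They were chosen after their counts were seen, and no gene is assigned to them here. ENST00000380846.3 had a median of 9.45 CPM with EtOH and 3.01 CPM with dex, and fold changes of -0.40 at 1 h (adjusted p = 0.817 by edgeR), -2.09 at 3 h (3.69e-08) and -1.96 at 11 h. ENST00000264487.2 had medians of 5.6 and 2.13 CPM and fold changes of -0.58 at 1 h, -1.76 at 3 h (adjusted p = 8.51e-06 by edgeR) and -1.44 at 11 h. The libraries share treatment and time, so these correlations are a description.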
